A study of Mus musculus with 29 samples.

Results

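The matrix-binding integrins described here are 10 genes named on a written list of integrin subunits of smooth muscle cells and fibroblasts, 7 alpha chains (Itga1, Itga5, Itga7, Itga8, Itga9, Itga11 and Itgav) and 3 beta chains (Itgb1, Itgb3 and Itgb5). All 10 were found by symbol among the 56748 genes of the count table, and all 10 were among the 12353 genes with enough counts for testing. RNA came from the aortic arch of mice of 2 genotypes. Ercc1Δ/− mice carry a truncated and a null allele of Ercc1, which encodes a subunit of a DNA repair nuclease, in every cell of the body, and their WT littermates were Ercc1+/+. All were F1 hybrids of C57BL6J and FVB, were housed singly and ate the same synthetic pellets. Mice fed ad libitum (AL) were killed at 6 or 22 weeks of age, and mice on dietary restriction (DR), which began at 7 weeks and reached 30% from 9 weeks, at 22 weeks. Each of the 6 groups held 4 or 5 mice of both sexes, 28 in all, after sample 003 (WT, AL, 22 weeks) was left out. Its total was low, at 400410 counts, and the study had excluded it for low counts and a diverging expression profile.

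Integrins are cell surface receptors made of an alpha and a beta chain, which bind the extracellular matrix outside the cell and, through talin, kindlin and vinculin, the actin cytoskeleton inside it. The beta chain of Itgb1 pairs with each of the 7 alpha chains, while those of Itgb3 and Itgb5 pair with the chain of Itgav. The alpha chain sets much of the ligand choice. The receptors with the chains of Itga1 and Itga11 bind collagens, that of Itga7 binds laminins, those of Itga5, Itga8 and Itgav bind proteins with an RGD motif such as fibronectin and nephronectin, and that of Itga9 binds tenascin C, osteopontin and VCAM1. In the vessel wall they tie smooth muscle cells to the elastic and collagenous matrix around them.

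Total counts on genes ran from 921167 to 9616382 per sample, with a median of 3256708. At 22 weeks every Ercc1Δ/− library was shallower than every WT library of the same diet, so depth and genotype went together at that age. The totals on AL were 1294980 to 3855444 in Ercc1Δ/− and 3903589 to 9616382 in WT mice. On DR they were 921167 to 2572523 and 2660422 to 6124471. At 6 weeks they overlapped (2299482 to 3979441 and 955589 to 9227924). Ercc1 itself, which checks the labels, had 94.2 to 132 normalized counts in WT and 28.2 to 78.7 in Ercc1Δ/− mice at 22 weeks on both diets, whereas at 6 weeks the ranges (52.2 to 136 and 31.2 to 56.3) overlapped in part. The sex label matched the data in all 29 libraries. All 8 smooth muscle markers searched for were detected in every group.

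The stretches of 250 bases before the start sites of Itga7, Itga8, Itga9 and Itgb1 are shown, for some of the alpha chains called lower in Ercc1Δ/− mice and for the beta chain they share. They were read from the GRCm39 genome on the strand of the gene, 5′ to 3′, at chr10:128769371-128769620 (+) for Itga7, chr2:12307215-12307464 (−) for Itga8, chr9:118435472-118435721 (+) for Itga9 and chr8:129411626-129411875 (+) for Itgb1, and none of the 4 overlapped an annotated exon. The window of Itga5, which was also called lower, held 80 exon bases and is not shown. Capitals mark matches on either strand to 3 motifs. The first is GGGCGG, the core of the box to which Sp1 and its relatives bind. The second is the classical core promoter box near the start of many tissue-restricted genes, spelled TATAAA. The third, which TEAD factors are known to bind, is spelled CATTCC.
Itga7: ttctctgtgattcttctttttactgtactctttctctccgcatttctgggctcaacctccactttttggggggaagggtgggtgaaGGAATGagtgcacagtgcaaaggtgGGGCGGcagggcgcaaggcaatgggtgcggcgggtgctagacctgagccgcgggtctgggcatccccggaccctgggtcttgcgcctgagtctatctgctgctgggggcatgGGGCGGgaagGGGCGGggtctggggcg
Itga8: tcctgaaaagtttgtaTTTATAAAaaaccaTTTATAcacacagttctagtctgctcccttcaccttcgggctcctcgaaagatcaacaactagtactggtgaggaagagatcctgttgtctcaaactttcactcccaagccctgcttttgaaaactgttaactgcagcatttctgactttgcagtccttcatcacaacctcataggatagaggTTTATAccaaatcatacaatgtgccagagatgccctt
Itga9: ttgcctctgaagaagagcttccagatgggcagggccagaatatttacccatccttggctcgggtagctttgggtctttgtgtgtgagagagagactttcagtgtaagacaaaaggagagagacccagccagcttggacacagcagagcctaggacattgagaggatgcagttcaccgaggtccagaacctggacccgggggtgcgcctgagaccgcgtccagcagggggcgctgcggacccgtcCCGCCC
Itgb1: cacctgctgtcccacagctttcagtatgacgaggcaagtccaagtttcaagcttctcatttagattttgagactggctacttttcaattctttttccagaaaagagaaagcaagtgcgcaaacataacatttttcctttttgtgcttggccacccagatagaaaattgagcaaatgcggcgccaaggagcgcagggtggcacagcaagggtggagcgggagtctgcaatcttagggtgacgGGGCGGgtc

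The Itga8 window differed from the other 3 in its letters. It was the poorest in G and C (41.2%, against 62% for Itga7, 58.8% for Itga9 and 48.8% for Itgb1) and held no GGGCGG. It had 4 matches to TATAAA on either strand. Only the match at 232 to 227 bases before the start read TATAAA on the strand of the gene. Those at 234 to 229, 220 to 215 and 37 to 32 bases before the start lay on the opposite strand. The farthest matches overlapped each other. TATAAA was present in 2 of the 10 windows (Itga8 and Itgav) and in 6.9% of the windows of the 11653 tested genes that were searched. GGGCGG was present in 6 of 10 against 50.3%, and CATTCC only in Itga7 among the members against 11.7%. Neither the CArG box, to which serum response factor binds, nor the AP-1 site TGACTCA was found in any of the 10, against 1.18% and 3.1% of all windows. The motifs were chosen after the expression values were known, and a match or its absence describes only these letters.

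Levels of different genes were compared per length, as counts per kilobase of exon scaled to the same sum in every sample. In WT mice on AL at 22 weeks, Itgb1 stood highest at 1437 ± 61.1 (SD, n = 4), followed by Itga8 at 1163 ± 68.8, and the ranges of these 2 did not overlap. Itgb5 followed at 650 ± 63.8, Itga5 at 437 ± 26.3, Itga9 at 405 ± 48.3, Itga7 at 226 ± 34.3 and Itgb3 at 86.4 ± 8.27. Itgav (31.2 ± 3.43), Itga1 (30.0 ± 4.51) and Itga11 (15.1 ± 2.00) closed the order. Only the neighbours Itga5 and Itga9, and Itgav and Itga1, overlapped in their ranges.

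In Ercc1Δ/− mice on AL at 22 weeks the order per exon length changed at its top. Itgb1 remained first at 1097 ± 36.2 (n = 4), but Itga8, at 533 ± 18.5, now lay level with Itgb5, at 538 ± 63.1, with overlapping ranges. Itga8 held 50.4% ± 1.81 of the summed levels of the 7 alpha chains in WT and 43.2% ± 3.27 in Ercc1Δ/− mice, with no overlap between the genotypes. This share overlapped between the genotypes at 6 weeks (43.33 to 51.31% in WT and 41.25 to 49.27% in Ercc1Δ/− mice). It also overlapped on DR (38.88 to 51.28% and 35.7 to 45%). The order depends on the length used, since the study counted reads over whole gene bodies. Per length of the whole gene, Itga8 (196 kb) dropped to the fourth place in WT, at 141 ± 12.3, behind Itgb1, Itga5 and Itga7.

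**Figure D1:**
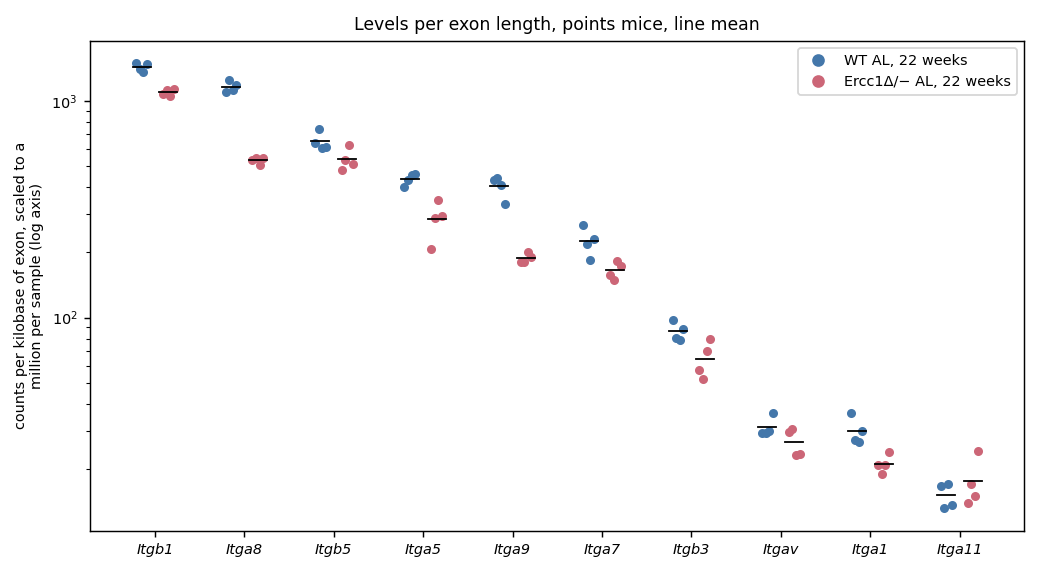
Level of each of the 10 integrin genes (y axis, logarithmic: counts per kilobase of exon, scaled to the same sum in every sample) in WT and Ercc1Δ/− mice on AL at 22 weeks; each point is 1 mouse, the short line is the group mean and genes are ordered by the WT mean. Itga8 falls from 1163 in WT to 533 in Ercc1Δ/− mice, where it lies beside Itgb5.

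The Ercc1Δ/− aortic arch held less RNA of several of these integrins at both ages and on both diets, and of none did it hold more past the test. Itga8 and Itga5 were lower in all 3 genotype comparisons. Itga7 was lower at 6 weeks and on DR, Itga9 at 22 weeks on either diet, and Itga1 and Itgb1 on DR. Itga11, Itgav, Itgb3 and Itgb5 did not pass in any of the 3 comparisons. The results of Itga5 at 22 weeks on AL, and of Itga9, Itga1 and Itgb1 on DR, were lost in some alternative fits. In bulk tissue, fewer cells of a type and less RNA per cell cannot be told apart.

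A gene was called when its adjusted p in edgeR was at most 0.05 and its fold change at least 1.2. At 6 weeks 3 of the 10 members were called lower, while 1.13% of all tested genes were. At 22 weeks on AL 3 of 10 were called lower against 6.16%, and at 22 weeks on DR 6 of 10 against 7.03%. With all 6 groups in the fit 4 were called on DR, without Itga1 and Itgb1. No member was called higher in edgeR or DESeq2 in any of the 3, where 0.567%, 5.88% and 5.97% of all genes were. The median log2 fold change of the 10 members was -0.29 at 6 weeks, -0.33 at 22 weeks on AL and -0.31 on DR, beside 0.02, 0.03 and 0.00 over all tested genes. With TMM scaling, all WT samples lay above all Ercc1Δ/− samples for 5 of 10 members at 6 weeks (1.81% of all genes). The same held for 5 of 10 at 22 weeks on AL (9.63%) and for 4 of 10 on DR (5.2%). Scaled by library total alone, the genotypes overlapped for Itga1 in all 3 comparisons, for Itga9 at 6 weeks, and for Itga5 and Itga7 on DR. On DR this left Itga8 as the only member without overlap.

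**Figure D2:**
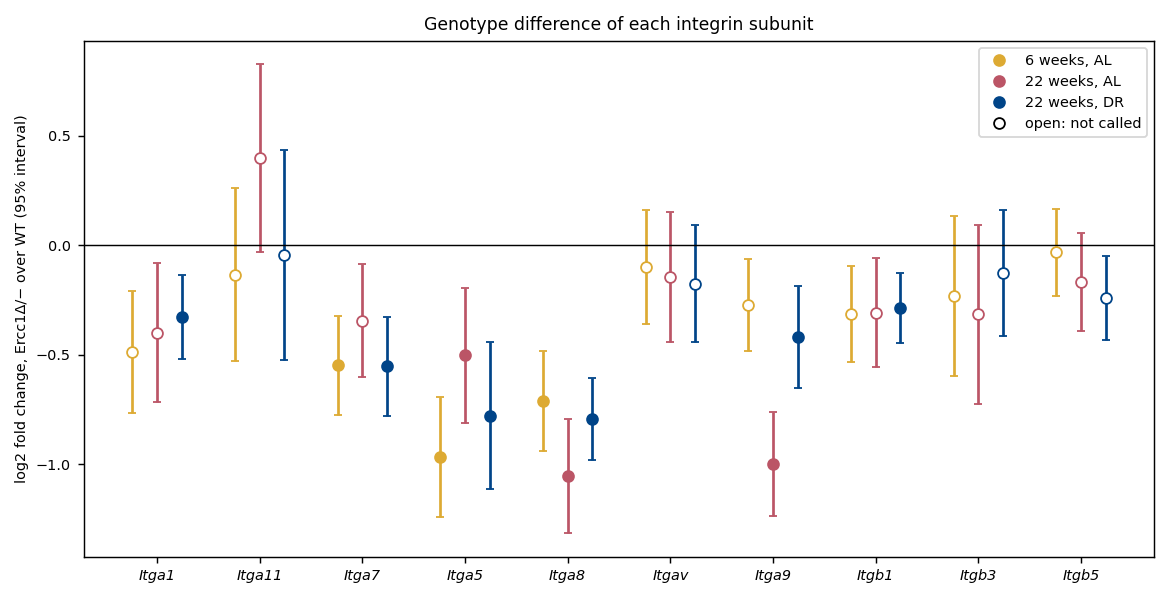
Genotype difference of each integrin gene as log2 fold change of Ercc1Δ/− over WT (y axis) with its 95% interval, at 6 weeks on AL, 22 weeks on AL and 22 weeks on DR; filled circles were called and open circles were not. The values of Itga8 are -0.71, -1.05 and -0.79, and that of Itga9 is largest in size at 22 weeks on AL (-0.998).

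Itga8 encodes the alpha chain of the nephronectin receptor, an integrin prominent in contractile smooth muscle. In normalized counts, which are counts scaled to the mean library, the WT mice on AL at 22 weeks had 9424, 9427, 9573 and 10027, and the Ercc1Δ/− mice had 4617, 4624, 4690 and 4887. The mice within each of these groups were close together, with coefficients of variation of 2.96% and 2.68%, and the groups lay far apart. The log2 fold change was -1.05 (SE 0.13, adjusted p = 1.1e-05). At 6 weeks the WT mice had 8545, 9575, 9645, 10719 and 12194, and the Ercc1Δ/− mice 4484, 5904, 6135, 6952 and 7395, again without overlap (log2 fold change -0.71, SE 0.11, adjusted p = 0.00198). On DR the WT mice had 7765, 8076, 8133, 8283 and 9938, of which the last (sample 007) stood apart, and the Ercc1Δ/− mice 3948, 4306, 4776, 5647 and 5730 (log2 fold change -0.79, SE 0.09, adjusted p = 2.17e-06). No Ercc1Δ/− mouse of any age or diet reached the lowest WT mouse. These calls held in every alternative fit and without any single sample.

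Itga5, the alpha chain of the main fibronectin receptor, was called lower in the same 3 comparisons. Its difference was largest at 6 weeks, when the WT mice had 1951, 2338, 2572, 2794 and 2931 normalized counts and the Ercc1Δ/− mice 968, 1206, 1360, 1402 and 1441 (log2 fold change -0.97, SE 0.13, adjusted p = 0.000454). At 22 weeks on AL the 4 WT mice had 1704, 1711, 1822 and 1889 and the 4 Ercc1Δ/− mice 888, 1215, 1306 and 1577 (log2 fold change -0.50, SE 0.15, adjusted p = 0.0291). The groups did not overlap, but this call was lost when any of the samples 004, 005, 018, 020, 025 or 026 was left out (adjusted p between 0.0538 and 0.0964), when sample 003 was added (0.0793), with all 6 groups in the fit (0.0542) and with all libraries thinned to the lowest total (0.0891). On DR the WT mice had 1827, 2201, 2229, 2752 and 3454 and the Ercc1Δ/− mice 1252, 1285, 1378, 1595 and 1804 (log2 fold change -0.78, SE 0.16, adjusted p = 0.00316). The lowest WT mouse thus lay just above the highest Ercc1Δ/− mouse.

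The third RGD-binding chain, Itgav, which also helps to activate latent TGF-beta, showed no difference past the test. Its normalized counts ran from 290 to 482 in WT and from 264 to 405 in Ercc1Δ/− mice at 6 weeks, and from 269 to 334 and 241 to 299 at 22 weeks on AL. On DR they ran from 233 to 349, the highest again in sample 007, and from 161 to 320. The 95% intervals of its log2 fold change were -0.36 to 0.16, -0.44 to 0.15 and -0.44 to 0.09, so that a decrease of the size seen for Itga8 lay outside them.

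Itga9, whose chain binds tenascin C and osteopontin, was the member whose genotype difference depended on age. At 6 weeks the WT mice had 2019, 2025, 2117, 2502 and 2829 normalized counts and the Ercc1Δ/− mice 1790, 1870, 1870, 1908 and 1976. These groups did not overlap, although the log2 fold change of -0.27 (SE 0.10) did not pass (adjusted p = 0.218). At 22 weeks on AL the WT mice had 1928, 2476, 2539 and 2664 and the Ercc1Δ/− mice 1112, 1113, 1229 and 1314, a log2 fold change of -0.998 (SE 0.12, adjusted p = 7.45e-06). On DR the WT mice had 1706, 1771, 1859, 2299 and 2444 and the Ercc1Δ/− mice 1308, 1338, 1474, 1665 and 1767. There the groups overlapped, and the log2 fold change was -0.42 (SE 0.11, adjusted p = 0.0139). The DR call was lost without sample 006, 021 or 028 (adjusted p between 0.0509 and 0.0607) and with all libraries thinned to the lowest total (0.091).

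Itga7 encodes the laminin-binding alpha chain of muscle. At 6 weeks the WT mice had 1299, 1406, 1604, 1673 and 1801 normalized counts and the Ercc1Δ/− mice 912, 1071, 1083, 1100 and 1117, the lowest (sample 027) standing apart, without overlap (log2 fold change -0.55, SE 0.11, adjusted p = 0.0109). On DR the WT mice had 1338, 1512, 1548, 1807 and 1959 and the Ercc1Δ/− mice 981, 1059, 1090, 1107 and 1307 (log2 fold change -0.55, SE 0.11, adjusted p = 0.00122). On AL at 22 weeks the WT range (1198 to 1771) overlapped the Ercc1Δ/− range (980 to 1281), and the log2 fold change of -0.34 (SE 0.12) did not pass (adjusted p = 0.0742), except without the low-count filter (0.0225) or without sample 020 (0.0359).

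Of the collagen receptors, Itga1 gave log2 fold changes of a like size at each point and passed on DR. Its WT mice on DR had 447, 508, 512, 543 and 550 normalized counts and its Ercc1Δ/− mice 371, 409, 415, 419 and 438 (log2 fold change -0.33, SE 0.09, adjusted p = 0.0203). The call was lost without sample 017 or 028 (adjusted p 0.0808 and 0.0591), with sample 003 added (0.0606) and with all 6 groups in the fit (0.0734). At 6 weeks (476 to 774 in WT and 404 to 466 in Ercc1Δ/− mice) and at 22 weeks on AL (432 to 618 and 322 to 425) its log2 fold changes were -0.49 (SE 0.13, adjusted p = 0.0669) and -0.40 (SE 0.15, adjusted p = 0.0933), although neither pair of groups overlapped. Itga1 was called at 6 weeks in DESeq2 (adjusted p = 0.0263), without the low-count filter (0.0209), with all 6 groups in the fit (0.0175) and without sample 001 or 024 (0.0258 and 0.0341). At 22 weeks on AL it was called without the filter (0.0307), with sample 003 added (0.0471) and with all 6 groups (0.0478).

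Itga11, the collagen receptor of fibroblasts, was the lowest of the 10, with 30.5 to 124 normalized counts over all groups. It was the one member above 0 in a genotype comparison, with 60.3 to 82.0 in WT and 68.5 to 124 in Ercc1Δ/− mice at 22 weeks on AL (log2 fold change 0.40, SE 0.21, adjusted p = 0.228), and its direction on DR (-0.04, SE 0.23) turned when any of the samples 006, 014, 017, 021 or 029 was left out (0.02 to 0.10). Its coefficient of variation within groups reached 36.7%, so small differences were not detectable at this depth.

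Itgb1 encodes the beta chain shared by all 7 alpha chains. On DR the WT mice had 6108, 6135, 6602, 6884 and 7736 normalized counts and the Ercc1Δ/− mice 4621, 5135, 5147, 6084 and 6443, which overlapped (log2 fold change -0.29, SE 0.08, adjusted p = 0.0139). Its fold change lay close to the limit for a call, which was lost without sample 007 (log2 fold change -0.24, adjusted p = 0.0595), 014 (-0.25) or 029 (-0.25), and with all 6 groups in the fit (adjusted p = 0.0711). On AL the log2 fold change was -0.31 at both ages (SE 0.11 and 0.12, adjusted p = 0.164 and 0.0992), and at 22 weeks it was called without the low-count filter (0.0253) and with only the compared groups in the fit (0.0312). The 4 Ercc1Δ/− mice of 22 weeks had 5136, 5347, 5352 and 5621 and the 4 WT mice 6271, 6369, 6582 and 7113, which did not overlap.

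The beta chains that pair with the Itgav chain moved less or varied more. Itgb3, which is also the beta chain of the platelet fibrinogen receptor, gave log2 fold changes of -0.23 (SE 0.17), -0.31 (SE 0.19) and -0.13 (SE 0.14) at 6 weeks, at 22 weeks on AL and on DR, with adjusted p between 0.327 and 0.655. For Itgb5 they were -0.03 (SE 0.10), -0.17 (SE 0.11) and -0.24 (SE 0.09), and the smallest adjusted p was 0.0877 on DR, where Itgb5 was called without the low-count filter (log2 fold change -0.30, adjusted p = 0.0125). Both genes overlapped between genotypes in every comparison.

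**Figure D3:**
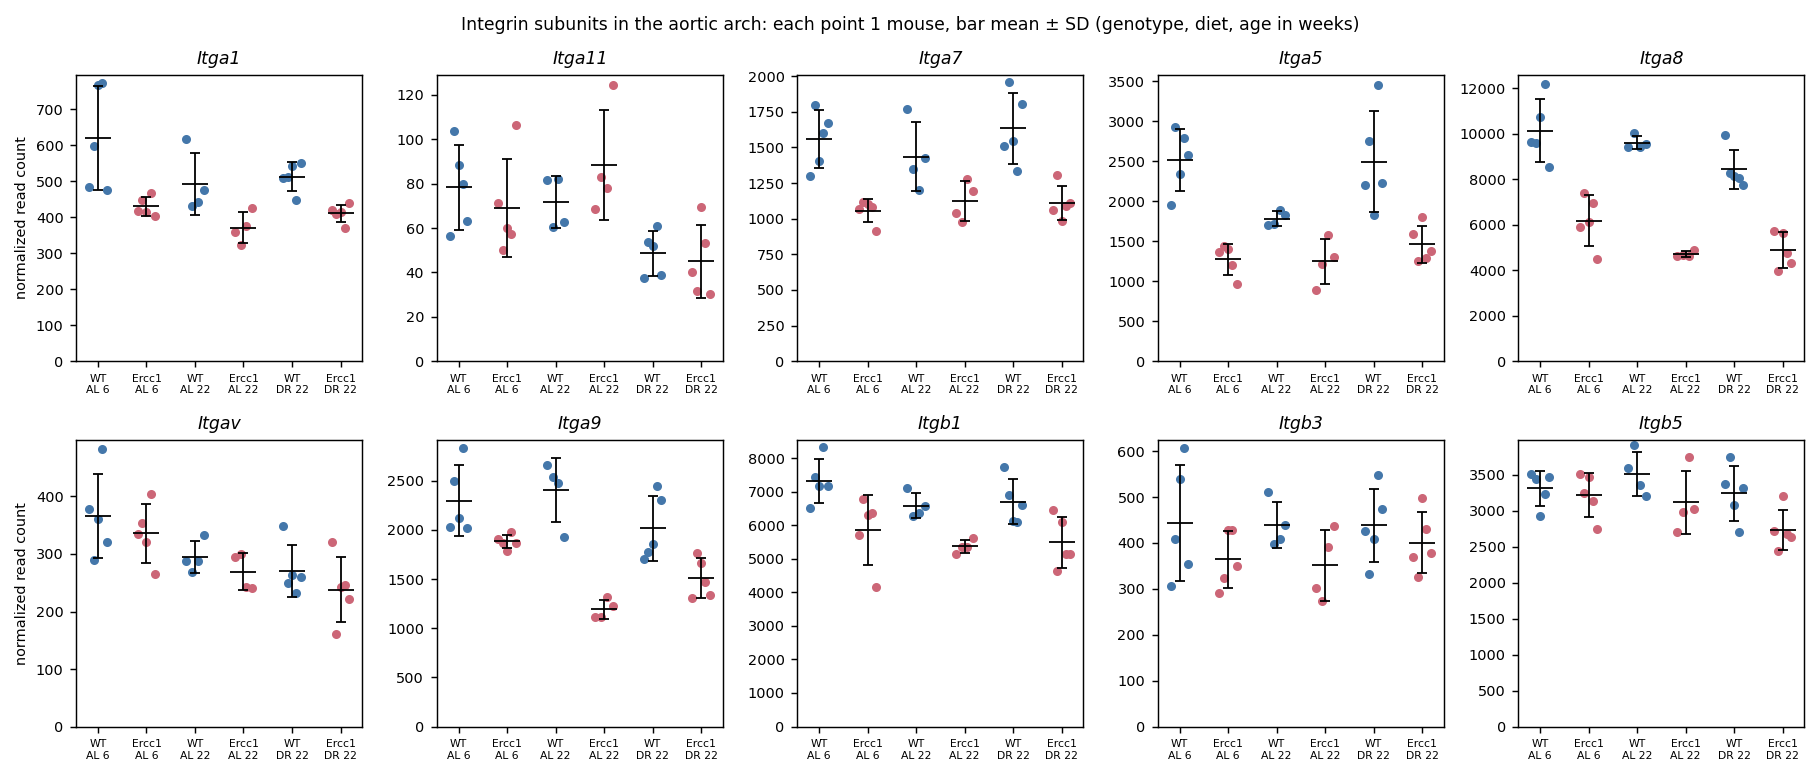
Normalized read counts (y axis, from 0) of the 10 integrin genes in each of the 6 groups (x axis: genotype, diet and age in weeks); each point is 1 mouse, and the bars give mean ± SD (n = 4 or 5). For Itga8 every Ercc1Δ/− mouse (3948 to 7395) lies below every WT mouse (7765 to 12194).

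Because all 7 alpha chains pair with the same beta chain, each was also set against Itgb1 in the same mouse, as a ratio of levels per exon length, and these ratios are given as a description since they were chosen after the values were seen. The ratio of Itga8 to Itgb1 was 0.766 ± 0.0756 in WT and 0.583 ± 0.0281 in Ercc1Δ/− mice at 6 weeks (n = 5 each). At 22 weeks on AL it was 0.810 ± 0.0620 and 0.485 ± 0.00853 (n = 4 each), and on DR 0.698 ± 0.0381 and 0.491 ± 0.0228 (n = 5 each). The genotypes did not overlap in any of the 3. Exact permutation tests of the Itga8 ratio gave p = 0.00794, 0.0286 and 0.00794, the smallest possible with these group sizes. After adjustment over 21 tests they were 0.0556, 0.0857 and 0.0556, and none passed. The lower Itga8 ratio is therefore only described.

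The ratio of Itga9 to Itgb1 separated the genotypes only at 22 weeks on AL, at 0.282 ± 0.0385 in WT and 0.172 ± 0.0125 in Ercc1Δ/− mice. It was 0.242 ± 0.0197 and 0.256 ± 0.0547 at 6 weeks and 0.236 ± 0.0551 and 0.217 ± 0.0502 on DR. The ratio of Itga5 separated them only at 6 weeks (0.385 ± 0.0401 and 0.246 ± 0.0216), and that of Itga7 at no point. The mean Itga11 ratio of Ercc1Δ/− mice on AL at 22 weeks was 1.51 times that of WT mice, without overlap. It rests on 28 to 79 raw counts of Itga11 in those Ercc1Δ/− mice, and Itga11 itself was not called in edgeR (adjusted p = 0.228). The exact permutation test of this ratio gave p = 0.0286, the smallest possible with groups of 4, and 0.0857 after adjustment over 21 tests.

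**Figure D4:**
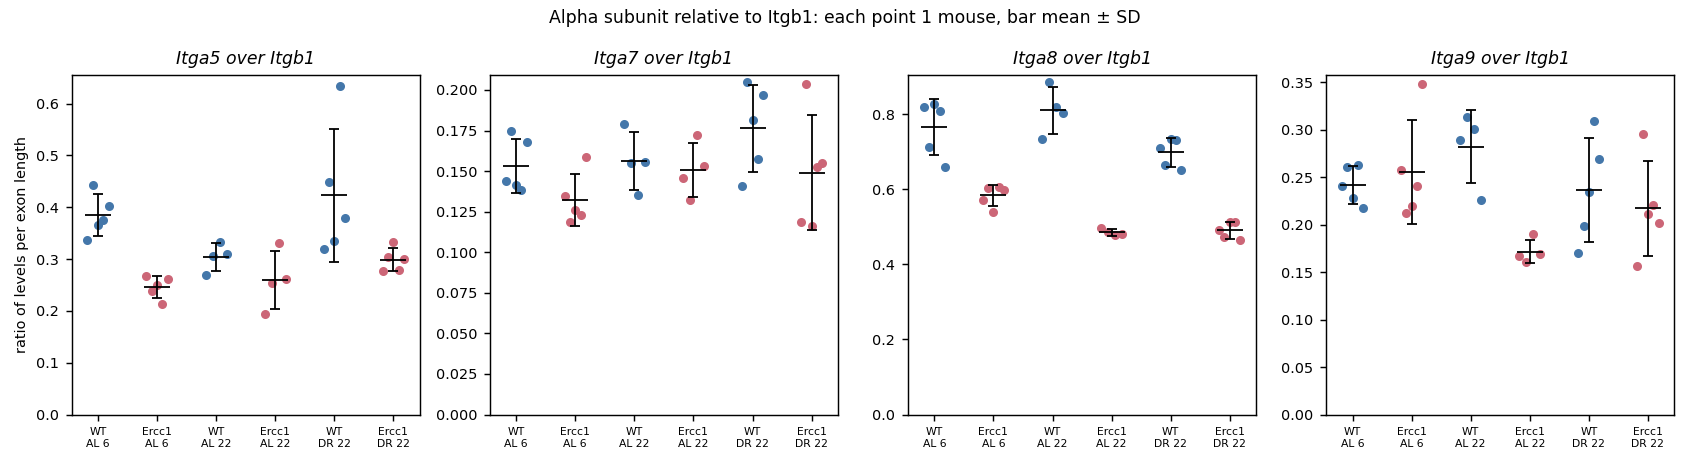
Ratio of Itga5, Itga7, Itga8 and Itga9 to Itgb1 per exon length (y axis, from 0) in each mouse of the 6 groups (x axis), with mean ± SD (n = 4 or 5). The Itga8 ratio lies between 0.464 and 0.605 in all Ercc1Δ/− mice and between 0.651 and 0.884 in all WT mice.

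With age, from 6 to 22 weeks on AL, Itga9 was the 1 member of 10 that was called in Ercc1Δ/− mice, where 2.57% of all tested genes were called lower. In WT mice neither edgeR nor DESeq2 called a member, where edgeR called 0.138% of all genes lower, and 3 members had an unadjusted p under 0.05 (8.64% of all genes). The same mice enter these comparisons and those of the genotypes. In Ercc1Δ/− mice Itga9 fell from 1883 ± 67.3 (n = 5) to 1192 ± 98.4 (n = 4) normalized counts without overlap, as for 3.38% of all genes (log2 fold change -0.66, SE 0.11, adjusted p = 0.000487). In WT mice it was 2298 ± 356 and 2402 ± 325 (log2 fold change 0.06, SE 0.11, adjusted p = 0.943). The difference between these 2 changes with age was itself tested, and at -0.73 (SE 0.15, adjusted p = 0.0174) Itga9 was the only member called in the genotype by age interaction, which called 0.842% of all genes in either direction. That call was lost without sample 004 (adjusted p = 0.055), without sample 018 (0.0876) and with sample 003 added (0.0612).

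Itga8 in Ercc1Δ/− mice had a log2 fold change with age of -0.40 (SE 0.12), which just missed the threshold at an adjusted p of 0.0512, and was called in DESeq2 (0.0226) and without sample 027 (0.00549). That sample was the lowest of its group for 7 of the 10 members. Itga5 in WT mice was 2517 ± 388 at 6 weeks and 1781 ± 90.0 at 22 weeks without overlap, as for 2.1% of all genes, but the log2 fold change of -0.51 (SE 0.14) did not pass (adjusted p = 0.156). In Ercc1Δ/− mice it was 1276 ± 193 and 1246 ± 284. Its interaction of 0.46 (SE 0.20) did not pass either (adjusted p = 0.366).

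DR changed none of the 10 past the test in either genotype, while 1.28% of all tested genes were called in WT and 1.64% in Ercc1Δ/− mice. With an unadjusted p under 0.05 there were 3 members in WT and 2 in Ercc1Δ/− mice, where 12.8% and 15.0% of all genes had one, and DESeq2 called none in WT and 1 (Itga11) in Ercc1Δ/− mice. Itga8 stayed low in Ercc1Δ/− mice, at 4705 ± 126 on AL (n = 4) and 4881 ± 794 on DR (n = 5), and the 95% interval of its log2 fold change with DR, -0.15 to 0.25, left out a return to the WT level. Itga9 had 1192 ± 98.4 on AL and 1510 ± 201 on DR in Ercc1Δ/− mice (log2 fold change 0.35, SE 0.12, adjusted p = 0.143), and 2402 ± 325 and 2016 ± 333 in WT mice. The difference between these changes was 0.62 (SE 0.17, adjusted p = 0.212), which passed only without the filter on low counts (0.0333).

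Itga11 had the largest log2 fold change with DR in both genotypes. It went from 88.5 ± 24.7 to 44.9 ± 16.5 normalized counts in Ercc1Δ/− mice (log2 fold change -0.89, SE 0.24, adjusted p = 0.0573) and from 71.6 ± 11.7 to 48.7 ± 10.2 in WT mice (-0.56, SE 0.19, adjusted p = 0.176). The ranges overlapped in both, and the first passed in DESeq2 (adjusted p = 0.0206). Itga5 in WT mice, with 1781 ± 90.0 on AL and 2492 ± 630 on DR, gave 0.51 (SE 0.17, adjusted p = 0.174). The genotype by diet interaction called no member in edgeR or DESeq2 and 0.0971% of all genes, and 1 member had an unadjusted p under 0.05 (8.72% of all genes). Between the sexes neither tool called a member, edgeR called 0.186% of all genes, and no member had an unadjusted p under 0.05 (7.83% of all genes).

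The ligands of these receptors did not move together at 22 weeks on AL. Of 16 RGD-type ligands tested, 6 were called lower and 2 higher. Npnt, which encodes nephronectin, the ligand of the Itga8 receptor, was 5066 ± 237 in WT and 2970 ± 297 in Ercc1Δ/− mice (log2 fold change -0.77, SE 0.12, adjusted p = 0.000136), and it was lower at 6 weeks (-0.54, SE 0.10) and on DR (-0.64, SE 0.08) too, like Itga8 itself. Fbln5, an elastic fibre protein, and Tgfb3 were lower as well (-0.68, SE 0.12, and -0.69, SE 0.13). Fn1, which encodes the fibronectin that the Itga5 receptor binds, had 7803 ± 970 and 7365 ± 1397 and did not pass (-0.07, SE 0.15, adjusted p = 0.808).

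Of the 8 ligands of the Itga9 receptor that were tested, 2 were called higher and none lower. Spp1, which encodes osteopontin, had 2.28 to 6.91 normalized counts in WT and 143 to 253 in Ercc1Δ/− mice (log2 fold change 5.44, SE 0.49, adjusted p = 4.03e-06), and Vcam1 had 313 ± 53.8 and 1079 ± 125 (1.74, SE 0.20, adjusted p = 1.96e-05). Itga9 and these 2 ligands therefore differed in opposite directions in the same mice. Tnc, for tenascin C, had 264 ± 31.8 and 276 ± 73.0 and did not pass (adjusted p = 0.861). On DR, Spp1 in Ercc1Δ/− mice was 30.6 ± 14.4 and Vcam1 508 ± 100, below their AL values (log2 fold changes with DR -2.90, SE 0.27, and -1.09, SE 0.17, adjusted p = 1.24e-06 and 0.00493).

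Collagens, the ligands of the Itga1 and Itga11 receptors, were called lower in 9 of 10 cases at 22 weeks on AL, with Col6a2 at -0.90 (SE 0.13) and Col6a1 at -0.66 (SE 0.13), in none at 6 weeks and in 7 on DR. With age in Ercc1Δ/− mice all 10 were called lower, such as Col3a1 at -2.25 (SE 0.18), whereas neither collagen receptor passed. In WT mice all 10 were below 0 with age as well (median log2 fold change -0.49), and 4 of 10 were called lower. Of 6 laminin chains tested, 2 were called lower at 22 weeks on AL (Lama4, -0.82, SE 0.11, and Lamb2, -0.41, SE 0.11) and 3 on DR.

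Inside the cell, 18 of 33 proteins of the integrin tail and the focal adhesion were called lower and 2 higher at 22 weeks on AL. Vcl, which encodes vinculin, gave -0.82 (SE 0.11, adjusted p = 2.48e-05), Vasp -0.75 (SE 0.11), the actin crosslinker Actn1 -0.81 (SE 0.13) and Lpp -0.66 (SE 0.11). At 6 weeks 5 of 33 were called lower and none higher, and on DR 17 lower and 2 higher. The list median was lower than that of all genes in each of the 3 comparisons, but counts of this kind are no test of the list. Between DR and AL in Ercc1Δ/− mice 1 of 33 was called, Tns1, which was higher on DR (0.36, SE 0.08).

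Other matrix receptors changed as well. Of 15 non-integrin receptors at 22 weeks on AL, Bcam, a laminin receptor, gave -1.15 (SE 0.10, adjusted p = 7.25e-08), Mcam -1.21 (SE 0.16) and Dag1, for dystroglycan, -0.38 (SE 0.10), while Sdc3 was higher (1.46, SE 0.24). Of 9 other integrin subunits tested, the leukocyte chains Itgam (2.25, SE 0.45) and Itgb2 (1.80, SE 0.36) and the collagen-binding Itga10 (0.54, SE 0.17) were higher, and Itga3 was lower (-0.49, SE 0.14).

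**Figure D5:**
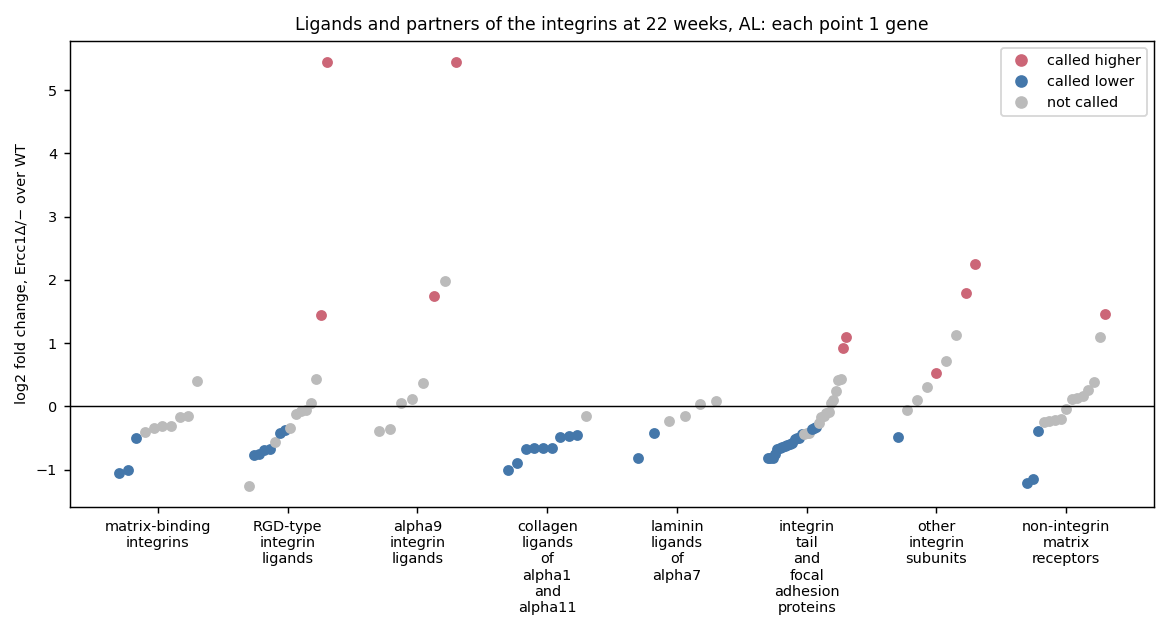
Log2 fold change of Ercc1Δ/− over WT at 22 weeks on AL (y axis) of every tested gene of the 10 integrins and of 7 lists of their ligands and partners (x axis); each point is 1 gene, blue called lower, red called higher and grey not called. Spp1 (5.44) stands on both ligand lists to which it belongs, and 18 of 33 focal adhesion genes are blue.

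Several measures moved with the genotype beside these integrins. The summed normalized counts of 8 smooth muscle markers were 119009 to 142286 in WT and 62426 to 96475 in Ercc1Δ/− mice at 22 weeks on AL, with 7 of 8 called lower, 118767 to 152150 and 87697 to 122062 at 6 weeks, with 2 of 8, and 123168 to 159729 and 87483 to 94755 on DR, with 8 of 8. Macrophage markers, of which 7 of 8 were called higher at 22 weeks on AL, summed to 892 to 1319 and 2003 to 3646. Fibroblast markers overlapped (23817 to 29040 and 21513 to 29246), with 2 of 8 called lower, and so did endothelial markers (2951 to 4328 and 2391 to 4070), with 1 of 8 called higher. Fat, Schwann cell, cardiac and mesothelial markers overlapped as well, with 1 of 6 tested Schwann cell and 1 of 6 tested cardiac markers called higher. No fat or mesothelial marker was called, at median log2 fold changes of 0.98 and 1.38. Markers of T and B cells were low throughout (4.27 to 6.91 and 8.37 to 17.4). Platelet markers, which bear on Itgb3, summed to 22.3 to 80.9 and 39.8 to 167, and skeletal muscle markers, which bear on Itga7, to 24.9 to 34.9 and 12.4 to 784. On DR, macrophage markers summed to 540 to 1020 in WT and 1252 to 4512 in Ercc1Δ/− mice, with 4 of 8 called higher, and endothelial markers to 1627 to 3425 and 3219 to 5388, also with 4 of 8. Cardiac markers there summed to 351 to 688 and 799 to 2140, with 1 of 6 tested called higher, and mesothelial markers to 139 to 501 and 151 to 1238, with 2 of 6. At 6 weeks macrophage markers summed to 719 to 860 and 865 to 2209, with 1 of 8 called higher. The part of these cell types in the integrin differences was not tested.

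Measures of the libraries moved with the genotype too. Mitochondrial genes took 2.47 to 3.72% of the counts in WT and 5.37 to 5.96% in Ercc1Δ/− mice at 22 weeks on AL, and alignments that were not unique were 3.66 to 4.46% and 5.19 to 5.74% of all reads counted, those in no gene included. Neither overlapped there, whereas both overlapped at 6 weeks and on DR. On DR the reads in no gene, at 7.47 to 9.09% and 9.34 to 10.1% of the same total, did not overlap. Reads ambiguous between genes were 1.593 to 1.659% and 1.735 to 1.821% of it at 22 weeks on AL, without overlap. On DR they were 1.593 to 1.65% and 1.653 to 1.782%, just without overlap, and at 6 weeks they overlapped. The part of these measures in the result was not tested.

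Long genes were called lower more often. At 22 weeks on AL 13.6% of the 1741 tested genes that span at least 100 kb were called lower, against 4.94% of the 10602 shorter ones, and 12.2% against 6.18% on DR. Of the members, Itga1 (149 kb), Itga8 (196 kb), Itga9 (294 kb), Itga11 (106 kb) and Itgb5 (121 kb) are that long, while Itga5 (22.6 kb) and Itga7 (24.5 kb) are short. The members called lower were thus of both kinds, and the part of length in the result was not tested.

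Itga8 also shares its place with other transcripts. The lncRNA E030013I19Rik overlaps it on the opposite strand, had 13.6% as many counts and, like Itga8, was called lower in all 3 genotype comparisons. Its log2 fold change in edgeR was -0.48 at 6 weeks (SE 0.11, adjusted p = 0.0283) and -0.80 at 22 weeks on AL (SE 0.13, adjusted p = 0.000178). On DR it was -0.51 (SE 0.11, adjusted p = 0.00259). Itga1 overlaps Mocs2 on the opposite strand, with 30.3% as many counts and a log2 fold change of 0.51 (SE 0.19, adjusted p = 0.0865), and Pelo on its own strand (3.12%). The library kit keeps the strand, but the strand setting of the counting is not given in the sources used here, so reads of these pairs may be split uncertainly.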

How the data were processed

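The authors moved unique molecular identifiers to the read headers (UMI-tools 1.1.2), trimmed with fastp, aligned to GRCm39 with STAR 2.7.10a, removed duplicates and counted reads over whole gene bodies with HTSeq 2.0.2, as the study's methods and the submitters' processing notes say. The values deposited by the authors are unnormalized read counts, 1 column for each mouse. The 5 lines that name no gene were left out of library sizes. Each mouse gave 1 library.

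The main test was the robust quasi-likelihood test of edgeR 4.0.16 under R 4.3.3, after TMM scaling, with group and sex as terms. Its p-values were adjusted by Benjamini-Hochberg over the 12353 genes that exceeded 10 counts in over 10 of the 28 samples. Genotype and age used the 18 AL samples, and diet and genotype on DR the 18 samples of 22 weeks, so these comparisons share mice. A call needed an adjusted p of at most 0.05 and a 1.2-fold change, with no fold limit for interactions. Normalized counts are TMM-scaled to 3683502, the mean library. Tests were checked on simulated data. DESeq2 1.42.0, other scalings, filters and sample choices were alternatives, and thinning to 921167 counts and an earlier dispersion method of edgeR were added after the data were seen.

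Positions and lengths came from a GENCODE annotation of GRCm39, later than the authors' Ensembl release. A symbol was found for 204 of 205 list genes. The members, lists and tests were chosen with earlier results of these data known, and all 10 members are described. Of each other list the text gives the counts called and up to 4 called genes with the smallest p. Fn1, Tnc and the overlapping genes were named after their values were seen.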

Additional observations from a re-analysis of the deposited data

Results flagged for a closer look

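In 60 combinations of a member and a group, each with 4 or 5 mice, the gap between an end sample and its neighbour was compared with Dixon's 95% limit, which chance passes in about 1 of 20 groups. It was passed 3 times. Itga7 in Ercc1Δ/− mice on AL at 6 weeks was 912 normalized counts in sample 027, with the other 4 at 1071 to 1117. Itga8 in WT mice on DR was 9938 in sample 007, with the others at 7765 to 8283. In the same sample Itgav was 349, with the others at 233 to 264.

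The genotype difference of Itga9 differed between 6 and 22 weeks on AL in the test of the interaction, by -0.73 on the log2 scale (adjusted p = 0.0174 in edgeR). Its log2 fold change was -0.27 at 6 weeks, which did not pass (adjusted p = 0.218), and -0.998 at 22 weeks.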

How the results depend on the processing

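No paired analysis was possible because each mouse gave 1 sample and the labels give no number that groups share. The depth of the shallowest library, 921167 counts, limits what can be seen of Itga11. Over all members and comparisons 808 of 850 values under other settings and 1187 of 1280 without a single sample kept their direction and their side of the threshold, and the 89 that turned were never called and at most 0.13 in size on the log2 scale. The calls of Itga8 in all 3 genotype comparisons, of Itga5 and Itga7 at 6 weeks and on DR, and of Itga9 at 22 weeks on AL and with age in Ercc1Δ/− mice were lost under none.

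The cause of the following moves was not tested. The number of called genes in DESeq2 was 378 in place of 210 for genotype at 6 weeks, 106 in place of 29 for age in WT, 197 in place of 104 for genotype by age, 348 in place of 202 for diet in Ercc1Δ/− mice, 43 in place of 12 for genotype by diet and 52 in place of 23 for sex. Without the low-count filter it was 70 for age in WT, 307 in place of 158 for diet in WT, 39 for genotype by diet and 49 for sex. With sample 003 added it was 99 for diet in WT, 101 for diet in Ercc1Δ/− mice and 3 for genotype by diet. Without the sex term it was 55 for diet in WT and 2 for genotype by diet, and with all 6 groups in the fit 66 and 5. With only the compared groups it was 121 for genotype at 6 weeks and 90 for diet in Ercc1Δ/− mice. Thinned to the lowest total, which leaves fewer counts, it was 128 for genotype at 6 weeks, 739 in place of 1487 at 22 weeks on AL and 978 in place of 1605 on DR, 11 and 358 in place of 579 for age in WT and Ercc1Δ/− mice, 67 for genotype by age, 51 and 113 for diet in WT and Ercc1Δ/− mice, and 2 for genotype by diet.

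With all 6 groups in the fit 4 in place of 6 members were called for genotype on DR. Called members numbered 6 in place of 3 for genotype at 22 weeks on AL without the filter. For age in Ercc1Δ/− mice they numbered 2 in place of 1 in DESeq2, without the filter, with the earlier dispersion method and when thinned, Itga8 being the second in each. They numbered 0 in place of 1 for genotype by age with sample 003, 1 in place of 0 for diet in Ercc1Δ/− mice in DESeq2 and without the filter (Itga11), and 1 in place of 0 for genotype by diet without the filter (Itga9).

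Leaving out 1 sample gave 102 (without WT sample 009) to 226 called genes for genotype at 6 weeks and 933 (without WT sample 018) to 1437 at 22 weeks on AL. It gave 8 to 30 for age in WT, 322 to 748 for age in Ercc1Δ/− mice, 55 to 134 for genotype by age, 44 to 204 for diet in WT, 78 to 274 for diet in Ercc1Δ/− mice, 2 to 18 for genotype by diet and 18 to 47 for sex. Called members for genotype ranged from 3 to 4 at 6 weeks, 2 to 3 at 22 weeks on AL and 4 (without WT sample 028) to 6 on DR. They ranged from 1 to 2 for age in Ercc1Δ/− mice, 0 to 1 for genotype by age and 0 to 1 for diet in Ercc1Δ/− mice. Some log2 fold changes that were not called in their comparison turned. For genotype at 6 weeks they ranged from -0.182 to 0.00676 for Itgav and -0.0697 to 0.0149 for Itgb5. For genotype on DR they ranged from -0.22 to 0.0978 for Itga11 and -0.212 to 0.00209 for Itgb3. Itga9 with age in WT ranged from -0.00533 to 0.158, and Itga8 with diet in Ercc1Δ/− mice from -0.0045 to 0.111. Other uncalled values turned as well, with age, with diet, in both interactions and between the sexes.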

Other observations

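Sample 003, the shallow library of a WT mouse on AL at 22 weeks that entered no comparison, had 9674 normalized counts of Itga8, inside the range of the other 4 mice of its group, and 1247 of Itga7, also inside. Its 1197 of Itga5, 1835 of Itga9, 5406 of Itgb1, 2164 of Itgb5, 289 of Itgb3 and 29.9 of Itga11 lay below the ranges of those mice, and its 658 of Itga1 and 439 of Itgav lay above them.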
